A study of Arabidopsis thaliana with 28 samples.

Results

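Shoot-only open regions are stretches of the Arabidopsis genome that carried an accessibility peak in every wild-type shoot library and in no wild-type root library. Overlapping peaks of the 12 wild-type ATAC-seq libraries were merged, which gave 37790 regions, and 901 of these (2.38%) had a peak in all 4 shoot libraries and in none of the 8 root libraries. The regions were chosen by the presence and absence of peaks in these 12 libraries, so their presence in shoots and absence from roots is a description and carries no test.

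ATAC-seq marks open chromatin with the Tn5 transposase, which inserts sequencing adapters where DNA is not wrapped in nucleosomes. Nuclei were purified on sucrose cushions and sorted by DAPI fluorescence after tissue had been held for 45 min in MS liquid medium with 5 µM benzyl adenine (BA, a cytokinin) or with vehicle control. Wild-type plants (Col-0) gave 4 control and 4 BA root libraries and 2 control and 2 BA shoot libraries. Roots of the triple mutant arr1,10,12 gave 2 control and 2 BA libraries, and no mutant shoots were analysed here. The labels give no age and no cell type; whole roots and whole shoots are mixtures of cell types, so a region open in fewer cells and one less open in each cell cannot be told apart.

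Open chromatin marks promoters, enhancers and other places where regulatory proteins reach the DNA, and part of it differs between organs. Shoots hold the photosynthetic tissue, the leaf epidermis with its wax layer, stomata and trichomes, and the shoot meristem, whose genes roots use little. Cytokinin is sensed by histidine kinases that pass phosphate through carrier proteins to the type-B response regulators, DNA-binding transcription factors that include ARR1, ARR10 and ARR12, the factors missing in the mutant.

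The peak lists held 30778 to 36358 peaks per library. Root libraries covered 24.1 to 28.7 Mb, shoot libraries 19.7 to 23.1 Mb and arr1,10,12 libraries 23.7 to 27.2 Mb, and shoot control 2 had the fewest peaks and the least covered length. The files give coordinates only, with no score and no read number, so the sequencing depth is unknown and a missing peak may be a region under the caller's threshold.

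**Figure D1:**
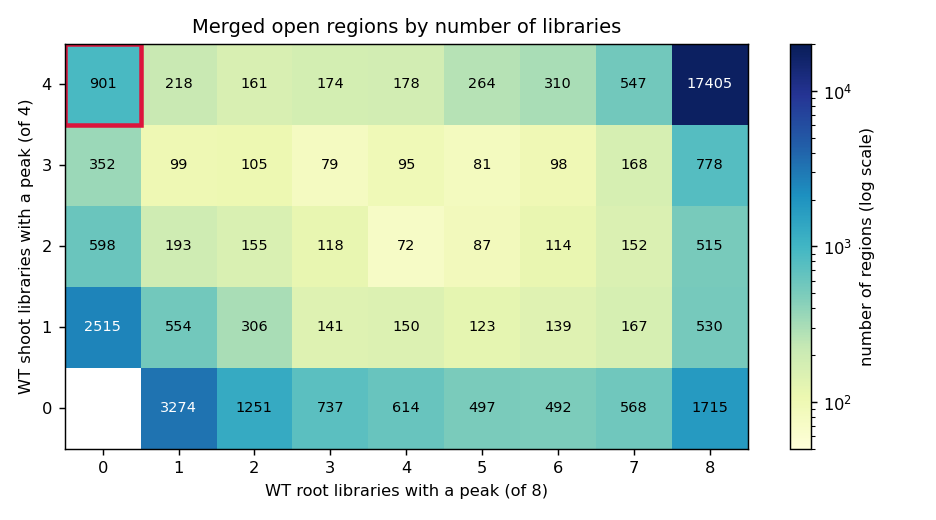
Number of merged wild-type regions (cell text, and colour on a log scale) by how many of the 8 root libraries (horizontal axis) and of the 4 shoot libraries (vertical axis) carry a peak. The outlined cell holds the 901 shoot-only regions. The row of 4 shoot libraries has its lowest cell, 161, at 2 root libraries and its highest, 17405, at 8.

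Among regions with a peak in all 4 shoot libraries, presence in roots was mostly complete or absent. All 8 root libraries had a peak in 17405 regions, 901 had none, and each step from 1 to 7 root libraries held between 161 and 547. On the inner edge of the rule 218 regions had a peak in exactly 1 root library, which was root control 1 in 61 of them and root BA 3 in 3. On the other edge 352 regions had a peak in exactly 3 shoot libraries and none in roots. Shoot control 2 was the missing library in 129 of these, shoot BA 1 in 120, shoot control 1 in 52 and shoot BA 2 in 51. The regions just outside differed in width: those with 3 shoot libraries had a median of 325.5 bp, against 493 bp for shoot-only regions and 493.5 bp for those with 1 root library. Regions with 3 shoot libraries were merged from the peaks of fewer libraries, which bears on their width.

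Shoot-only regions were narrower than those shared with roots. Their median width was 493 bp (quartiles 371 and 703, range 209 to 5778), and 101 of them (11.2%) were wider than 1000 bp. The 19257 regions open in all 4 shoot libraries and in at least 1 root library had a median of 1078 bp, and 54.3% of them were wider than 1000 bp. The root-only regions, with a peak in all 8 root libraries and in no shoot library, also had a lower median than the shared ones, 714 bp. The rule bears on these differences, since a wide merged region has more bases that a root peak can touch. The widths are also those of unlike unions. Shared regions were merged from shoot and root peaks, shoot-only regions from the peaks of the 4 shoot libraries alone. Root libraries had median peak widths of 486 to 537.5 bp, against 427 to 470 bp in shoot libraries. A single peak per shoot library made up 764 of the 901 regions. The stretch under a peak in all 4 shoot libraries at once had a median of 288 bp, which was 61.9% of the region, and 2 regions had no base common to all 4.

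By the position of their midpoint, 329 shoot-only regions (36.5%, Wilson 95% interval 33.4 to 39.7) lay within the body of a protein-coding gene. A further 328 (36.4%, 33.3 to 39.6) lay within 1 kb of one, and 244 (27.1%, 24.3 to 30.1) lay farther away and are called distal. The distal share was higher than the 13.1% of regions shared with roots. Restricting the shared regions to the middle widths of the shoot-only regions, 371 to 703 bp, left 4769 regions of which 12.9% were distal. The distal share of shoot-only regions was also the higher one with flanks of 500 bp (39.7% against 22.7%) and 2 kb (13.2% against 5.8%) and with all annotated genes (19.9% against 9.49%). The 1715 root-only regions had a distal share of 25.1%, within the interval of the shoot-only value. Of the 244 distal regions, 179 had no annotated gene of any type within 1 kb, and in 29 the nearest gene of any type was a long non-coding RNA gene within 1 kb. The intervals treat regions as independent and cover counting error only.

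**Figure D2:**
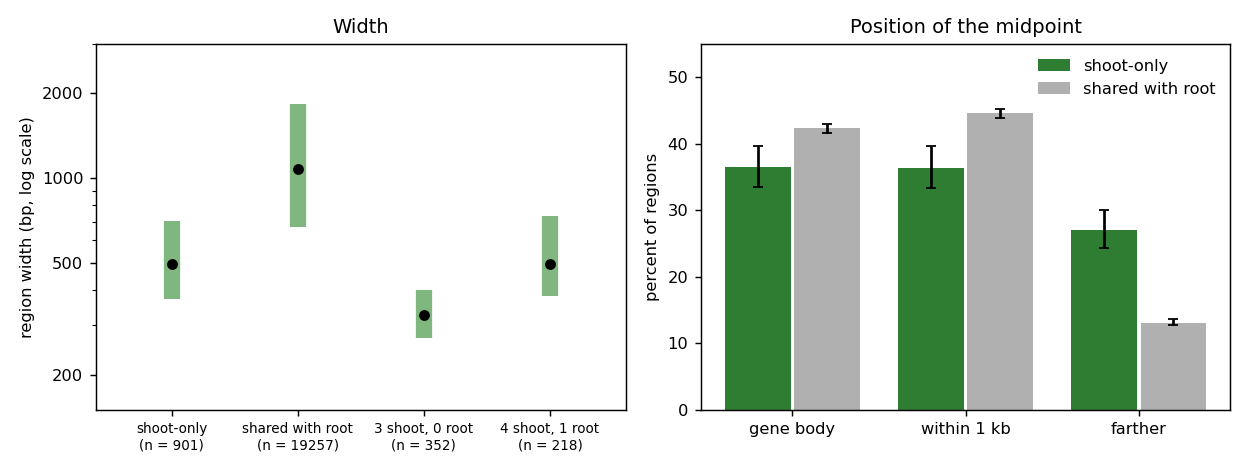
Left, width in bp on a log scale, with the median as a point and the quartiles as a bar, for shoot-only regions, regions shared with roots and the sets just outside the rule. Right, percent of regions whose midpoint falls inside a gene, at most 1 kb from one or beyond that, with Wilson 95% intervals; 27.1% of shoot-only and 13.1% of shared regions lay farther than 1 kb.

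From the edge of a shoot-only region to the nearest root peak of any library the median distance was 883 bp; 301 regions (33.4%) had one within 500 bp and 484 (53.7%) within 1000 bp, while 49 had none within 5000 bp. Root peaks lie densely, so distances from the region midpoint were set beside those of the genome at large. From the midpoint the median was 1195 bp, with 16.6% within 500 bp and 41.8% within 1000 bp. Over all bases that no root peak covered it was 1221 bp, with 27.4% and 44.5%. A midpoint sits inside a region free of root peaks, which makes short distances rarer by construction, so no conclusion on nearness is drawn. Chromosome shares followed those of the shared regions: chromosome 1 held 27.4% of shoot-only and 26.5% of shared regions, and chromosome 4 held 15% and 15.4%.

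Taking a gene with 1 kb on either side as its window, 859 of 27444 protein-coding genes (3.13%) had a shoot-only region, and in 508 it overlapped the gene itself. Of these 859 genes, 530 (61.7%) also had other chromatin in the window that was open in all 8 root libraries, and 181 (21.1%) had no root peak there. Over all 21327 genes with a peak in every shoot library in the window, the same shares were 95.8% and 0.914%. The rule bears on this difference, since the 859 genes were chosen for a stretch without a root peak and the 21327 were not. No conclusion is drawn from it. Most of the 859 genes still had open chromatin in roots at another place of the same window. A pair of regions occurred at 94 genes, 3 regions at 14 and 4 at 2.

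The shoot-only regions at genes of 11 lists are described next, each list beside the 3.13% of all protein-coding genes. Genes of the 8 shoot lists had a shoot-only region in 46 of 231 cases (19.9%). None of the 27 root identity genes and none of the 7 broadly used genes had one. With so few genes, no hit is near what the 3.13% of all genes would give. Only 12 of the 27 root identity windows had a peak in all 4 shoot libraries. The windows of the root identity genes were covered by peaks over 7.74% ± 0.395 (SD, n = 4) of their length in shoot libraries and 30.3% ± 3.48 (SD, n = 8) in root libraries, in the direction the tissue labels give. Those of the broadly used genes were covered over 48.9% ± 3.90 and 55.1% ± 2.76.

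**Figure D3:**
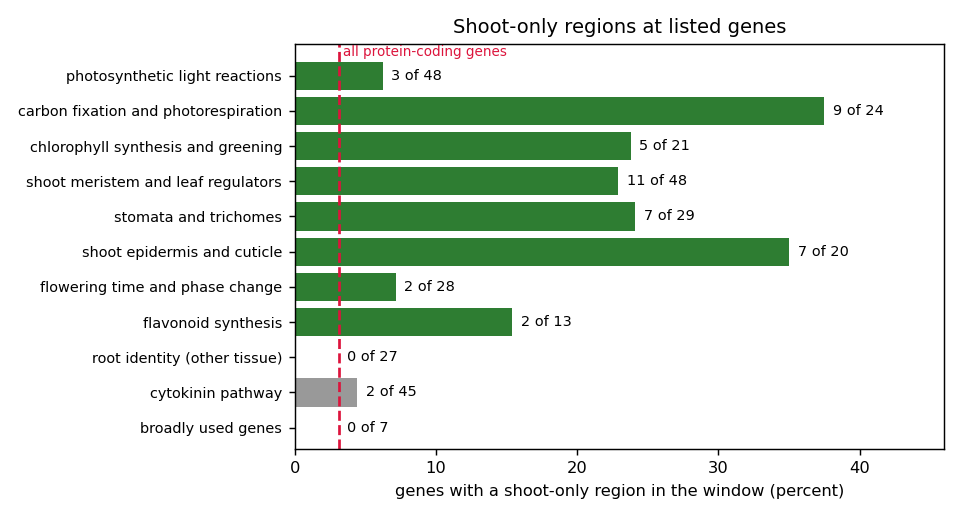
Percent of the genes of each list that have a shoot-only region in the gene body or within 1 kb, with the count beside the bar; green bars are shoot lists and grey bars the others. The dashed line is the 3.13% of all protein-coding genes; carbon fixation and photorespiration (9 of 24) and shoot epidermis and cuticle (7 of 20) have the longest bars.

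Carbon fixation and photorespiration had 9 of 24 genes with a shoot-only region (37.5%). The largest block was at 3 of the genes for the small subunit of Rubisco, the enzyme that fixes CO2. RBCS3B, RBCS2B and RBCS1B lie side by side on chromosome 5, and 4 shoot-only regions took up 9013 bp of the 9.597 kb from chr5:15376150-15385746 (TAIR10). The region over RBCS3B, chr5:15376150-15378879, was under a peak over 100% and 91.3% of its length in shoot control 1 and 2 and over 88.0% and 79.9% in shoot BA 1 and 2. The region whose midpoint lies in RBCS2B, chr5:15379463-15384016, was covered over 97.0% and 60.1% in control and 86.8% and 67.9% in BA libraries. The third large one, over RBCS1B at chr5:15384379-15385746, had 99.8% and 57.2% in control and 91.1% and 66.5% in BA libraries. Control and BA libraries overlapped in these last regions, while over RBCS3B both controls lay above both BA libraries. That order was found in 12% of all 901 shoot-only regions. No root library of either genotype had a peak in the windows of the 3 genes. The nearest wild-type root peak was 12009 bp from the RBCS3B region, 6872 bp from the RBCS2B region and closer still to the RBCS1B region. These genes are near-identical copies, and how reads that map to several places were treated is not given in the sources used here, so the division of open chromatin among them is uncertain.

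**Figure D4:**
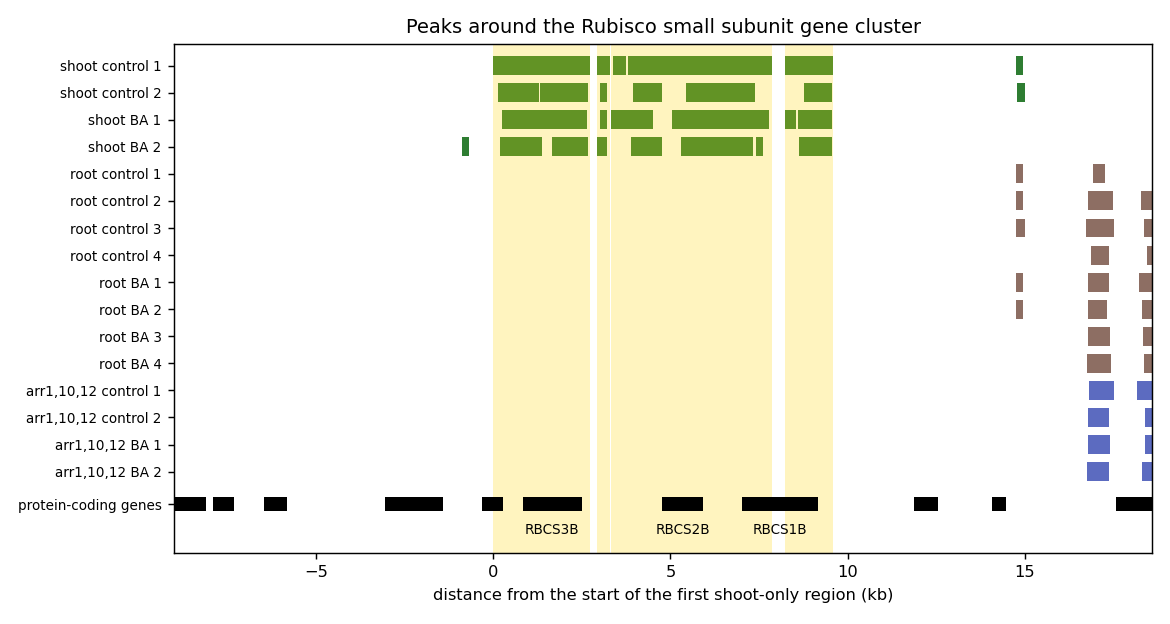
Peaks of the 16 libraries (rows; green shoots, brown wild-type roots, blue arr1,10,12 roots) and protein-coding genes (black) by distance in kb from the start of the first shoot-only region at the RBCS3B, RBCS2B and RBCS1B genes. Shading marks the 4 shoot-only regions, which are filled in the 4 shoot rows and empty in the 12 root rows.

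The other genes of this list each had 1 region. GAPA2, a subunit of the Calvin cycle glyceraldehyde-3-phosphate dehydrogenase, had one of 684 bp covered over 91.5% and 60.4% in control and 100% and 94.0% in BA libraries, and no root peak in its window. FBA1, a plastid fructose-bisphosphate aldolase, had one of 887 bp and CA1, a carbonic anhydrase, one of 554 bp. GOX1 and GOX2, the photorespiratory glycolate oxidases, shared a region of 1038 bp. The region in the window of RCA, Rubisco activase, had its midpoint in the neighbouring gene AT2G39725 and was covered over 43.3% and 34.8% in control and 100% and 36.3% in BA libraries, so shoot BA 1 alone set its width. The windows of FBA1, CA1, GOX1, GOX2 and RCA all held a peak in the 8 wild-type root libraries elsewhere. Over the list, windows were covered over 37.8% ± 3.31 in shoots and 21.7% ± 1.23 in roots.

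Photosynthetic light reactions stood lower, with 3 of 48 genes (6.25%), although the windows of all 48 had a peak in every shoot library. The count was 5 without shoot control 1, without shoot BA 1 or without root control 1, and 0 where no root peak was allowed within 500 bp of a region. In 42 of them every root library had a peak too, and the covered share of the windows was 48.7% ± 6.33 in shoots and 35.4% ± 2.14 in roots. LHCB1.2, a light-harvesting protein of photosystem II, had a region of 343 bp in the gene, covered over 91.6% and 75.2% in control and 100% and 89.5% in BA libraries. The regions in the windows of LHCB6, another antenna protein, and PSBW, a photosystem II subunit, had their midpoints in the neighbours AT1G15810 and AT2G30560. The LHCB genes also include close copies, with the same uncertainty as for RBCS.

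Chlorophyll synthesis and greening had 5 of 21 genes (23.8%), and the windows of all 5 held a peak in all 8 root libraries. Over the list, shoots and roots were close, with windows covered over 30.3% ± 2.97 in shoots and 27.6% ± 2.14 in roots. GLK1, GNC and CGA1 are transcription factors that drive chloroplast development, the last of them a cytokinin-responsive GATA factor. CGA1 had a pair of regions, chr4:13252038-13252455 with 64.6%, 75.1%, 72.2% and 100% and chr4:13252942-13253250 with 97.4%, 64.7%, 81.9% and 98.4% in shoot control 1, control 2, BA 1 and BA 2. In both, BA 2 was the highest library and BA 1 lay between the controls. GLK1 had a region of 739 bp and GNC one of 744 bp. PORA, a light-dependent protochlorophyllide reductase, had one of 454 bp covered over 91.2% and 94.7% in control and 79.3% and 68.3% in BA libraries, and CAO, which makes chlorophyll b, one of 983 bp.

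Shoot meristem and leaf regulators had 11 of 48 genes (22.9%). All 4 YABBY genes of the list, which specify the lower side of leaves, were among them: YAB1 and YAB5 had a pair of regions each, YAB2 and YAB3 one each. YAB5 had regions of 479 and 666 bp, with no root peak in its window. Within YAB1 the regions were 643 and 453 bp wide, and the windows of YAB1 and YAB3 held a peak in all 8 root libraries. AS2, a leaf polarity factor, and WOX1, a homeobox gene of blade outgrowth, also had a pair each. The WOX1 region outside the gene, chr3:6164087-6164640, was evenly covered, over 98.4%, 96.9%, 94.0% and 95.3% in shoot control 1, control 2, BA 1 and BA 2. The one within WOX1, chr3:6160342-6161145, varied more, with 86.0%, 95.3%, 73.9% and 98.1% in the same order. TCP10, a factor that limits leaf growth, had the widest region of the list at 1154 bp. GRF5 and its coactivator AN3, which promote leaf cell proliferation, had regions of 428 and 742 bp. LSH4, of the shoot organ boundary, and ATH1, a meristem homeobox factor, had regions of 344 and 691 bp, that of LSH4 distal by its midpoint.

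Stomata and trichomes had 7 of 29 genes (24.1%), and windows of the list were covered over 21.2% ± 0.372 in shoots and 16.3% ± 1.66 in roots. SPCH starts the stomatal lineage and SCRM and SCRM2 are its partner factors. SPCH had regions of 821 and 535 bp, and SCRM2 had one of 318 bp in the gene and one of 609 bp in its flank, with no root peak in the window. EPFL9, the peptide stomagen that raises stomatal number, had a region of 973 bp covered over 100% and 81.4% in control and 73.9% and 52.1% in BA libraries, and no root peak in its window. The 2 control libraries lay above the 2 BA libraries there, an order found in 108 of all 901 shoot-only regions (12%). ERL2, a receptor-like kinase of stomatal patterning, KAT1, a guard cell potassium channel, TCL1, an inhibitor of trichome formation, and SCRM had 1 region each, 372 to 589 bp wide.

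Shoot epidermis and cuticle had 7 of 20 genes (35%) with a shoot-only region, and its windows were covered over 25.3% ± 2.56 in shoots and 9.83% ± 1.70 in roots. MYB94, an activator of wax synthesis, had the widest region of the list, chr3:17539238-17541828, 2591 bp, covered over 96.9% and 60.3% in control and 76.7% and 55.2% in BA libraries. KCS6, an elongase of very-long-chain fatty acids, had one of 1106 bp, and ABCG11, a cuticle lipid exporter, a pair of 368 and 430 bp. The windows of these 3 genes held no root peak. CER3 and CER2 act in wax synthesis and had regions of 1415 and 658 bp. ATML1 and PDF2, the homeodomain factors of epidermal identity, had regions of 831 and 505 bp; the ATML1 region, chr4:11554518-11555348, was covered over 92.4%, 98.8%, 95.9% and 94.2% in shoot control 1, control 2, BA 1 and BA 2, with no order between the treatments.

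The remaining shoot lists held fewer. Flowering time and phase change had 2 of 28 genes (7.14%), against 4 of them without shoot BA 2. The 2 were FD, the partner of the florigen FT, with 409 bp, and SPL5, whose region had its midpoint in AT3G15260. Flavonoid synthesis had 2 of 13 genes (15.4%), the anthocyanin factor PAP1 with 528 bp and the flavonol factor MYB111 with 660 bp. In both lists the covered share of the windows was lower in shoots than in roots, 22.0% ± 1.23 against 23.7% ± 1.86 and 24.8% ± 0.804 against 29.1% ± 2.71. Shoot libraries also covered less of the genome as a whole, 19.7 to 23.1 Mb against 24.1 to 28.7 Mb. The part of this in the list values was not tested. Of the 45 genes of the cytokinin pathway 2 had a shoot-only region (4.44%), 1 where peaks up to 100 bp apart were merged and 0 where no root peak was allowed within 500 bp. The 2 were ARR1, itself one of the regulators missing in the mutant, with 303 bp in the gene, and CKX3, a cytokinin oxidase, with 314 bp. The windows of both held a peak in all 8 root libraries.

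Of the 48 listed genes with a shoot-only region, 27 had a peak in all 8 root libraries elsewhere in the window and 10 had no root peak in it. The 10 were RBCS1B, RBCS2B, RBCS3B, GAPA2, YAB5, SCRM2, EPFL9, KCS6, MYB94 and ABCG11.

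By the mean over the 4 shoot libraries of the widest peak in the region, the leading region lay on LTP, a lipid transfer protein gene, chr2:6518116-6522185, with a mean of 3562 bp. It was covered over 99.7%, 93.5%, 92.5% and 97.7% in shoot control 1, control 2, BA 1 and BA 2. Farther along the same chromosome, RLP19, a receptor-like protein gene, carried chr2:6532930-6537404, with a mean widest peak of 2685 bp. The widest region of all was at WRR4, a resistance gene against white rust, chr1:21169570-21175347, 5778 bp. It was made of up to 5 peaks in one library, and 3266 bp of it was common to all 4 shoot libraries. The others of the 10 leading regions were those of RBCS2B (2693 bp), AT2G10940 (2467 bp), AT1G51805 (2407 bp), AT2G41945 (2190 bp), AT1G43605 (1727 bp), AT2G29290 (1697 bp) and RBCS3B (1683 bp), each value being the mean widest peak. All 10 had 0% covered in the 4 arr1,10,12 libraries.

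Several genes held more than one region, where regions count as separate unless their peaks overlapped. SFP2, a sugar transporter-family gene, and AAP6, an amino acid permease, had 4 each, summing to 2491 and 1677 bp. Those with 3 and the largest summed width were RBCS3B (7645 bp), ZFP8, a zinc finger factor of trichome initiation (3827 bp), HB22, a zinc finger homeodomain factor (3207 bp), UMAMIT46, of an amino acid transporter family (3086 bp), ELP, an extensin-like protein (3085 bp), AT1G71695 (2354 bp), UGT73C6, a flavonoid glycosyltransferase (2169 bp), and AT1G35420 (2031 bp). Of 896 pairs of neighbours on a chromosome 208 were at most 5 kb apart.

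In roots of arr1,10,12, whose libraries the rule did not use, 32 of the 901 regions (3.55%) had a peak in any of the 4 libraries. Over all 20158 regions with a peak in every shoot library the share was 92.6%. By library the count was 4 in control 1 (0.444%, Wilson 95% interval 0.173 to 1.14), 20 in control 2 (2.22%, 1.44 to 3.40), 4 in BA 1 (0.444%, 0.173 to 1.14) and 10 in BA 2 (1.11%, 0.604 to 2.03). Control 2 was the highest of the 4 and also had the most peaks of them, 34105; the part of peak number in this was not tested. Control and BA libraries overlapped. The root-only regions had a peak in 92.6% to 96.3% of cases in the same libraries.

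Of the 32 regions, 27 had a peak in 1 mutant library, 4 in 2, 1 in 3 and none in all 4. Their median width was 509 bp against 492 bp for the other shoot-only regions, 18 (56.2%) lay in gene bodies against 36.5% of all shoot-only regions, and 14 (43.8%) had a wild-type root peak within 500 bp against 33.4% of all shoot-only regions. The region with peaks in 3 mutant libraries was at AT5G39030, chr5:15619465-15620201, covered over 59.8% in control 1, 69.1% in control 2, 0% in BA 1 and 67.2% in BA 2. Those with 2 were nearest to OZF2 and AT5G52270, both distal by their midpoints, and in the gene bodies of IREG1 and LURP1. These 5 were picked after their values were seen. Among the listed genes, 1 region each of CER2 and YAB1 had a peak in 1 mutant library.

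The absence of peaks in wild-type roots is part of the rule, so the mutant values were set beside wild-type root libraries left out of the rule in turn. With 1 root library left out and the regions rebuilt from the other 11, the left-out library had a peak in 6.34%, 5.16%, 3.01% and 3.01% of the 904 to 962 rebuilt regions for root control 1 to 4. For root BA 1 to 4 the shares were 3.64%, 1.098%, 0.332% and 1.31%. The mean was 2.99% ± 2.06 (SD, n = 8). The highest 2 were control libraries, root BA 1 lay above controls 3 and 4, and root control 1 and BA 1 had the most peaks. On the same rebuilt sets the mutant libraries had 0.576% in control 1, 2.49% in control 2, 0.510% in BA 1 and 1.21% in BA 2, a mean of 1.196% ± 0.917 (SD, n = 4). Within control, both mutant libraries lay below all 4 wild-type libraries, and within BA both lay inside the wild-type range. The mutant mean was below the wild-type mean by less than the SD of the wild-type libraries. A higher share of open regions in mutant roots was not seen at this number of libraries.

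**Figure D5:**
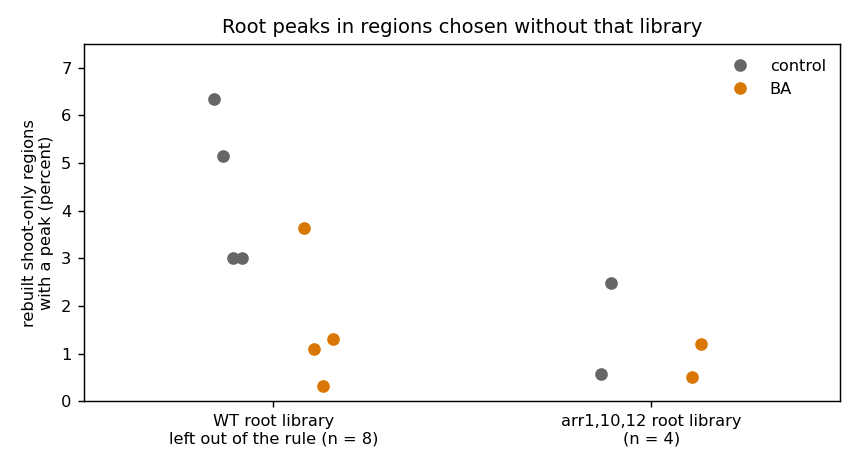
Percent of rebuilt shoot-only regions with a peak in each root library, for the 8 wild-type libraries when left out of the rule and for the 4 arr1,10,12 libraries as means over the 8 rebuilt sets; grey points are control and orange points BA, shifted sideways for legibility. The mutant points, 0.510% to 2.49%, lie inside the wild-type range of 0.332% to 6.34%; the mutant control points lie below the 4 wild-type control points.

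The same step in shoots shows how far the regions recur. Rebuilt from the other 3 shoot libraries, the regions had a peak in the left-out one in 94.9% of cases for control 1, 87.8% for control 2, 88.6% for BA 1 and 94.9% for BA 2. For regions shared with roots and of similar width the shares were 98.3%, 92.9%, 95.8% and 97.9%. The share of shoot-only regions was the lower one in each of the 4 libraries, and control 2 was the lowest library in both sets.

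Cytokinin treatment was compared through the covered share of the shoot-only regions. The mean over the 901 regions was 84.3% in shoot control 1, 74.7% in control 2, 80.6% in BA 1 and 81.5% in BA 2. The BA libraries lay between the 2 controls, and the difference of the means, 1.57 percentage points, was smaller than the SD of the controls (79.5% ± 6.80 against 81.0% ± 0.595, n = 2 each). Regions shared with roots had a difference of 1.59 percentage points in the same libraries. With 2 libraries on each side no test was made, and the difference turned to -2.94 percentage points without shoot control 2. Both BA libraries were above both controls in 130 shoot-only regions (14.4%) and below both in 108 (12%), against 13.7% and 8.87% of the shared regions.

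Of the authors' deposited table of 685 BA-differential shoot regions, 15 (2.19%) overlapped a shoot-only region. Seen from the other side, 14 shoot-only regions (1.55%) overlapped the list, against 2.6% of all regions open in the 4 shoot libraries. These shares are per region and do not allow for width. The shoot-only regions were narrower, with a median of 493 bp against 1078 bp for those shared with roots. No shoot-only region overlapped the authors' deposited table of 760 root regions, where 2.22% of all regions open in the 4 shoot libraries did. The rule left out every region with a wild-type root peak, so it bears on this absence, and no result is drawn from it. The table gives no direction, so the direction here is that of the covered share, in the libraries the authors used to choose the regions.

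More covered with BA were 12 of the 14, and 2 were less covered. Of all 901 shoot-only regions, 53.5% were more and 44.8% less covered with BA. AN3, the leaf growth coactivator named above, had its region chr5:10648451-10649192 covered over 62.4% and 48.1% in control and 100% and 78.3% in BA libraries. Both BA libraries were above both controls there, an order found in 14.4% of all 901 shoot-only regions. SAUR29, of the family of small auxin-induced genes, had 62.6% and 46.6% in control and 96.1% and 99.2% in BA libraries in chr3:976902-977751. The region nearest to NGA3, a leaf margin and style regulator, was distal by its midpoint, as were those of YUC2 and AT4G38860 below. It had 75.4% and 75.8% in control and 82.2% and 100% in BA libraries. The region nearest to YUC2, an auxin synthesis gene, had 71.8% and 71.5% in control and 90.7% and 89.7% in BA libraries; it is narrower than the 10 widest and was named after its values were seen. The same order held at AT5G59990, with 47.5% and 43.3% in control and 89.1% and 100% in BA libraries, and at AT3G20300, with 49.6% and 52.3% against 90.9% and 84.6%. The region nearest to AT4G38860, a SAUR gene, had 72.1% and 68.7% against 83.9% and 97.7%. UMAMIT43-psi had 86.1% and 75.1% in control and 100% and 75.8% in BA libraries, where the groups overlapped, as they did at AT1G51805 with 82.4% and 56.6% against 99.7% and 73.4%. The 2 less covered with BA were RBCS2B, whose groups overlapped, and AT2G10940, with 98.0% and 90.8% in control and 69.3% and 88.8% in BA libraries. None of the 14 had a peak in an arr1,10,12 library. Of all 901 shoot-only regions 3.55% had one, so none among 14 is near that share.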

How the data were processed

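The deposited files used were 16 peak lists, 1 per ATAC-seq library, and 2 lists of BA-differential regions, named after diffReps with a 1.2 fold setting. The deposited values are coordinates (chromosome, first and last base), without score, count or p. The tools named in the submitters' processing notes are HOMER 4.9.2, deepTools 2.5.2, SAMtools 1.5 and Bowtie 1.2.0, on TAIR10; what each did is not given in the sources used here. Of 28 samples, the 12 with RNA-seq were left out (not analysed here). The series text calls the libraries biological replicates. Starts were read as 0-based and are printed 1-based.

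Overlapping peaks were merged, and a library counted as present where at least 1 bp of its peak lay in the region. The covered percent is the share of a region, or of the gene windows of a list, under a peak. Genes came from RefSeq TAIR10.1, which gives names, extents and types here, and no strand; shifting gene flanks against the peaks gave the best fit within 100 bp of no shift in 61 of 62 bins of 2 Mb (largest 200 bp). All 310 list genes were found. Python 3.11.15, numpy 2.4.6, pandas 2.3.3 and scipy 1.17.1 were used, and the rule was checked on simulated peaks.

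The regions and lists were chosen with earlier results of these data known. Genes were named by rule: listed genes with a region, the 10 regions with the widest mean peak, the 10 genes with most regions, the widest regions with a peak in all 4 mutant libraries (there were none) and the 10 widest on the differential lists. No test was made, since the rule used the peaks. No sequence is shown, as no genome sequence was used here.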

Additional observations from a re-analysis of the deposited data

How the results depend on the processing

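Depth is unknown, peaks are present or absent without a level, and shoots have 2 libraries per treatment, so small differences could not be detected; the cause of the shifts below was not tested except where the setting itself makes them. The 901 regions became 728 when peaks up to 100 bp apart were merged, 1253 with a peak in at least 3 of 4 shoot libraries, 760 with 50% of the region covered in each shoot library, and 600 with no wild-type root peak within 500 bp. Leaving out each library in turn gave 904 to 1059 regions, median widths of 448 to 498 bp, 34.5% to 37.6% in gene bodies, 35.5% to 37.6% near genes, 26.3% to 27.9% distal, 32 to 44 regions with a peak in arr1,10,12, 14 to 19 on the shoot differential list and 48 to 52 listed genes. The classes moved by construction: 23.8% near and 39.7% distal with 500 bp flanks, 50.3% and 13.2% with 2 kb, 41.0% in gene bodies and 19.9% distal with all annotated genes, and 53.4%, 24.97% and 21.6% (gene body, near, distal) by any overlap; gene bodies held 33.3% where 50% was covered in each shoot library. The 32 regions with a peak in arr1,10,12 became 51 with at least 3 of 4 shoot libraries, 18 with no root peak within 500 bp, 13 with 50% of the region under the mutant peak, 53 without both root libraries of number 1, and 0, by construction, where a mutant peak was also barred. The 14 regions on the differential list became 8 with 50% covered in each shoot library and 9 with no root peak within 500 bp. The BA minus control difference in shoots was -2.94 to 6.33 percentage points over the same leave-one-out settings; in the replicate block it was -3.66 for number 1 and 6.80 for number 2, opposite signs, and with 2 pairs the labels do not say whether a number marks a shared batch. Over the 25 alternatives run for the lists, root identity and broadly used genes had 0 throughout, epidermis and cuticle 4 to 8, carbon fixation 8 to 10, meristem and leaf regulators 9 to 12, stomata and trichomes 5 to 10, chlorophyll and greening 3 to 5, flowering 1 to 4, flavonoid synthesis 1 to 2, cytokinin pathway 0 to 3 and light reactions 0 to 6; with no root peak within 500 bp, light reactions and cytokinin pathway had 0 and epidermis and cuticle 4. An alternative added after seeing the data, a base common to all 4 shoot libraries, left 899 regions.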

Other observations

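Some gene families appeared repeatedly among the shoot-only regions; they were chosen after the regions were seen, so their counts are descriptions without a test, beside the 3.13% of all protein-coding genes. The SAUR genes, small auxin-induced genes that often lie in tandem, had a shoot-only region in the window of 21 of 80, from 19 distinct regions. The KCS elongases of very-long-chain fatty acids had 5 of 21, among them KCS6 and KCS8, and the genes with a lipid transfer protein name 5 of 8. Of the cysteine-rich receptor-like kinases 9 of 41 had one, from 7 regions, of the B-box factors 5 of 31 (BBX14, BBX15, BBX16, COL1 and COL2), of the UMAMIT transporters 7 of 46 and of the cytochromes P450 21 of 239 (8.79%). Many of these genes are tandem copies, where 1 region can serve several windows and where reads that map to more than 1 copy could be placed in ways the sources used here do not state.

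Shoot-only regions also lay in runs. Peaks that did not overlap were kept as separate regions, so 1 open stretch may count as several. At AT1G29660, for example, chr1:10368077-10368505 abuts chr1:10368506-10369521. The spacing of shared or root-only regions was not set beside these runs. Of the 901 regions 549 had no neighbour within 5 kb, and the longest run held 6 over 8.43 kb, chr1:4087299-4095727, around ELP and AT1G12100. A run of 5 over 10.7 kb, chr1:25707542-25718248, passed LBD42, BBX14, KCS6 and TKPR2. Another of 5 over 10.3 kb, chr2:15411964-15422303, passed the UGT73C1 to UGT73C6 glycosyltransferase genes, and one of 5 over 7.91 kb, chr3:10445726-10453633, passed UMAMIT43-psi, UMAMIT46 and UMAMIT47. The 4 regions of the Rubisco small subunit genes filled more of their span than these, 9013 bp of 9.597 kb against 5664 bp of 8.43 kb in the run at ELP.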
